A study of Caenorhabditis elegans with 2 samples.

Results

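The homeobox transcription factor genes of Caenorhabditis elegans were examined as places where the homeobox protein CEH-9 might be found along the genome. They were chosen by name. The 90 genes are the 63 protein-coding genes named ceh- plus a number and 27 others, such as lin-39, unc-62 and ttx-1, out of 19973 protein-coding genes of Ensembl release 115. For each gene the window ran from 2 kb upstream of the transcription start site (TSS) to the end of the gene. Chromatin immunoprecipitation sequencing (ChIP-seq) was done on strain OP202, genotype unc-119(ed3) III; wgIs202, in which the transgene wgIs202 gives CEH-9 a GFP-FLAG tag at its C terminus. An antibody against GFP was used on sonicated chromatin of late embryos of both sexes. They were taken 4.75 h after eggs had been bleached to synchronize them. There are 2 biological replicates in 1 group, both with this genotype, and no other condition. Control libraries and an untagged strain were not analysed here. Whole embryos were used, so no value belongs to a cell type, and fewer cells carrying the protein cannot be told apart from less protein per cell.

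Homeobox genes encode transcription factors that bind DNA through a homeodomain, a fold whose recognition helix commonly reads short sites with the core TAAT. In worms they set the identity of neurons, muscles and epidermal cells, and the Hox genes among them pattern the body from head to tail. Many homeobox genes are themselves controlled by homeodomain proteins, some by their own product. CEH-9 belongs to the NK-related genes of the ANTP class.

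Binding is given as peaks, each with a summit, the position of the highest signal, and a signal value on the scale of the authors' peak caller. The 3 relaxed lists hold 30000 entries each, a fixed length that reaches into background, so the rank of a summit by signal, with 1 the strongest, carries the information rather than its presence. Signal ran from 22.5 to 416 in the pooled list, from 9.33 to 166 in replicate 1 and from 16.5 to 269 in replicate 2, with rank 1000 at 54.6, 22.6 and 41.9. A further list holds the 207 reproducible peaks. Of the strongest 207 summits, those within 100 bp of a tRNA, snoRNA or other small RNA gene made up 62.3% (pooled), 55.6% (replicate 1) and 49.8% (replicate 2). The homeobox summits were almost all away from such genes, with 1 of 191 near one (0.524%, against 1.46% of all pooled summits). Coordinates are those of ce11.

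No homeobox gene window held one of the strongest 207 pooled summits. That is 0 of 90 genes (exact 95% interval to 4.02%), where 1.08% of all protein-coding genes held one, so a count of 0 lies within what 90 genes can show. Among the strongest 1000 summits, 5 homeobox genes had one (5.56%, interval 1.83 to 12.5%), beside 5.30% of all genes. These were unc-62, ceh-18, ceh-87, ceh-43 and ceh-39. The share was thus close to the background.

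At the looser limit of 5000 summits, 26 homeobox genes had one (28.9%, interval 19.8 to 39.4%), beside 21.5% of all genes. In the whole pooled list 73 had one (81.1%, interval 71.5 to 88.6%), beside 67.0%. The windows of homeobox genes are longer, however, with a median of 5.34 kb against 4.03 kb. Per length the strongest 5000 summits fell at 57.5 per Mb of homeobox window and 54.8 per Mb of all gene windows, and the strongest 1000 at 10.8 and 11.0 per Mb. The whole list gave 3.47 and 3.20 summits per 10 kb. The strongest 500 fell at 3.59 and 5.39 per Mb, from 2 homeobox genes, and the strongest 2000 at 14.4 and 21.7, from 7. Counted by length, the homeobox genes were thus near the other genes at 1000, 5000 and the whole list, and lower at 500 and 2000, where the counts are small. Genes named nhr-, the nuclear hormone receptors, had 11 of 269 among the strongest 1000 (4.09%) and 45 among the strongest 5000 (16.7%). Genes named hlh-, of the helix-loop-helix family, had 1 of 25 (4.00%) and 5 (20.0%).

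Each replicate alone gave shares of much the same size as the pooled list at 1000 and 5000 summits. At 2000 each replicate had 11 homeobox genes (12.2%), against 10.0% (replicate 1) and 9.98% (replicate 2) of all genes. The pooled list had 7 there (7.78%, against 9.92%). In replicate 1, 2 homeobox genes had a summit among the strongest 207 (2.22%, against 1.13% of all genes), and in replicate 2 also 2 (against 1.10%). Among the strongest 1000 it was 5 genes in replicate 1 (against 5.21%) and 5 in replicate 2 (against 5.23%). Among the strongest 5000 it was 24 (26.7%, interval 17.9 to 37.0%) and 27 (30.0%, interval 20.8 to 40.6%), where all genes had 21.8% and 21.3%. In the whole lists the replicates parted, with 63 homeobox genes in replicate 1 (70.0%, interval 59.4 to 79.2%, against 70.4%) and 73 in replicate 2 (81.1%, against 67.6%). Per length, replicate 1 gave 2.84 summits per 10 kb of homeobox window and 3.19 of all windows, and replicate 2 gave 3.45 and 3.21. The higher share of the whole pooled list was therefore also found in replicate 2 and not in replicate 1. In the plot of shares at 207, 1000 and 5000 summits, the homeobox interval holds the share of all genes in each list. In the whole lists this held for replicate 1 only. The whole-list interval, 71.5 to 88.6% in both the pooled list and replicate 2, lies above the 67.0% and 67.6% of all genes.

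**Figure D1:**
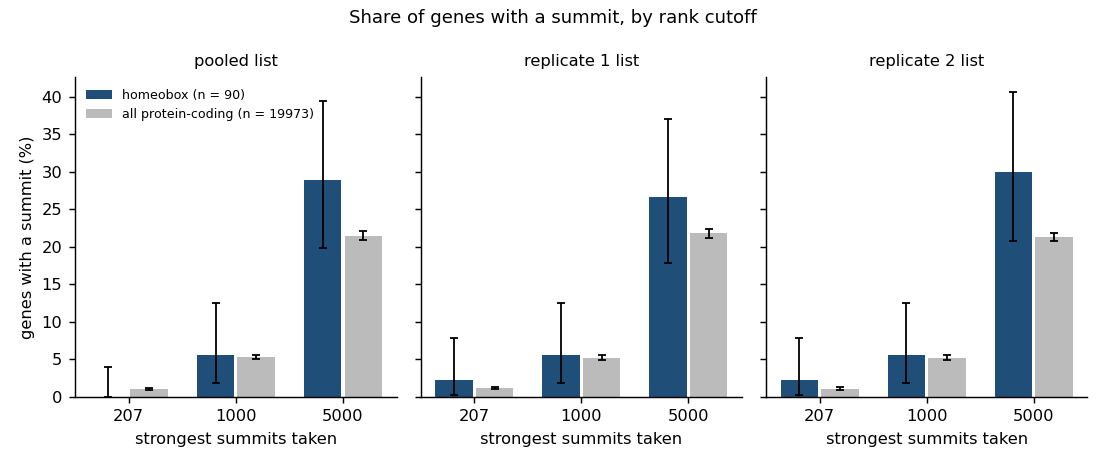
Percent of genes with a summit in their window (vertical axis) among the strongest 207, 1000 and 5000 summits of the pooled list and of each replicate's list, for 90 homeobox genes (blue) and 19973 protein-coding genes (grey). Lines are exact 95% intervals that cover the counting of genes only. At 5000 pooled summits the bars stand at 28.9% and 21.5%.

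The strongest homeobox summit lay in unc-62, which encodes a Meis-family homeodomain protein that works as a partner of Hox and Pbx proteins. It was at rank 374 of the pooled list (signal 65.6), in an intron 6010 bp from the TSS. In replicate 2 the matching summit was at rank 93 (signal 69.9). Replicate 1 had none within 100 bp, and its nearest lay at 5852 bp (rank 19633). The second was at ceh-18, a POU-class gene needed in the gonadal sheath that surrounds the oocytes. It was upstream, at position -1702 from the TSS (rank 377, signal 65.5), with a match at rank 179 in replicate 2 (signal 56.9) and 9152 in replicate 1 (signal 14.5). The gene ceh-43, a distal-less relative required in anterior epidermis and dopaminergic neurons, had an intron summit at rank 557 (signal 61.1) with matches at rank 887 in replicate 1 (signal 23.1) and 5395 in replicate 2 (signal 30.1). It was the only one of the 5 whose best summit was stronger by rank in replicate 1. The paired-like gene ceh-54 had the strongest summit past rank 1000 (rank 1470, signal 51.5), 116 bp from the TSS in an intron. It had rank 929 in replicate 2 and no match within 100 bp in replicate 1, whose ceh-54 summit lay at 254 bp (rank 21020). The summit base and 75 bases to each side follow for these 4 genes because they lie at each gene's best summit, for the best ranked genes where it overlaps no annotated UTR and no repeat of TTAGGC. They are given on the + strand from the RefSeq genome WBcel235, with TAAT and its reverse complement ATTA in capitals. They span chrV:4503396-4503546 for unc-62, chrX:3859424-3859574 for ceh-18, chrIII:4448610-4448760 for ceh-43 and chrX:6194050-6194200 for ceh-54.
unc-62: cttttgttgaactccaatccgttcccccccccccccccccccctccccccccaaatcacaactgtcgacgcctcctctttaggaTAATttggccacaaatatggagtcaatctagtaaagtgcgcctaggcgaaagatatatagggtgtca
ceh-18: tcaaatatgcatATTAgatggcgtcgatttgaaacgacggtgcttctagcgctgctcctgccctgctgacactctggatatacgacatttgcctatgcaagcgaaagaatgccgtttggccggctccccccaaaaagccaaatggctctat
ceh-43: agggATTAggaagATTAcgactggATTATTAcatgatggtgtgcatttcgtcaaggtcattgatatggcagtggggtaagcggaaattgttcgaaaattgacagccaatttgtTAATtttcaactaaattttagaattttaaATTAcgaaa
ceh-54: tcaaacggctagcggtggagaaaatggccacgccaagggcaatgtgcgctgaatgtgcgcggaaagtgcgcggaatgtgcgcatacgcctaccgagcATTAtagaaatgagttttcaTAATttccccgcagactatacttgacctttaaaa
The ceh-43 window held 6 copies of the TAAT core, ceh-54 held 2, and unc-62 and ceh-18 held 1 each. None of the 4 held the longer homeodomain sites TAATTA or TAATTG. The unc-62 window carried an unbroken run of 20 C bases, and the ceh-18 window was of varied sequence, with 99.3% of its 6-base words distinct. In the ceh-54 window the unit gtgcgc recurred, and 90.4% of the words were distinct, where 22.2% of all pooled windows had a lower share.

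In a second set of windows the 6-base unit TTAGGC occurred more than once, counting both strands. The gene ceh-87, a homeobox gene outside the listed classes, had the third strongest summit (rank 505, signal 62.0). It lay upstream at position -642, inside the neighbouring gene sup-9, which encodes a potassium channel. Replicate 2 had it at rank 250 (signal 53.9), and replicate 1 had no match. The CUT-class gene ceh-21 had an intron summit 1866 bp from the TSS (rank 1925, signal 48.9). Replicate 2 had it at rank 2061 (signal 37.0), and replicate 1 had no match within 100 bp. Past that distance, replicate 1 had a ceh-21 summit at 1668 bp (rank 1892, signal 20.3). The pooled list had another ceh-21 summit near that one, at 1641 bp (rank 9043). Both sequences are shown because TTAGGC or its reverse complement occurs more than once in them. They span chrII:2684875-2685025 and chrX:1850795-1850945, on the + strand, with TTAGGC and its reverse complement GCCTAA in capitals. This 6-base unit is also that of the worm's telomeres.
ceh-87: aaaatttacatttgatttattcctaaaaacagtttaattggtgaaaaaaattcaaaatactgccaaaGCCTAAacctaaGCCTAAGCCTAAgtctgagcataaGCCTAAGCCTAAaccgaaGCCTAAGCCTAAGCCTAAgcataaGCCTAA
ceh-21: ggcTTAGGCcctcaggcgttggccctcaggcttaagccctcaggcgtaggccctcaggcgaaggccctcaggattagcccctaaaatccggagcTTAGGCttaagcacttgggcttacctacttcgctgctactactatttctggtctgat
The ceh-87 window held 9 copies of TTAGGC on either strand and ceh-21 held 2. Another unit, ccctcagg, also recurred in the ceh-21 window and is not marked. Only 65.1% of the 6-base words in the ceh-87 window were distinct, and 2.43% of all pooled windows had a lower share. In the ceh-21 window 73.3% were distinct, and 4.03% of windows had a lower share.

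The strong homeobox windows were searched for the same features, which were chosen after these windows had been seen. The counts include windows printed above, ceh-87 for TTAGGC and unc-62 for runs. They are therefore not independent of that choice. Of the 31 homeobox summits among the strongest 5000, 3 had at least 3 copies of TTAGGC on either strand (9.68%), beside 2.10% of all 5000 summits. They were those of ceh-87, of vab-7 with 6 copies and of ceh-45 with 4. A run of at least 10 equal bases was in 7 of the 31 (22.6%), beside 5.34%. Over all 191 homeobox summits both shares were near those of the whole list, with 1.57% against 1.19% for TTAGGC and 5.24% against 4.81% for runs. Their part in the ranks was not tested.

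TAATTA or TAATTG, searched on both strands within 75 bases of the summit, occurred in 30 of the 191 homeobox windows (15.7%), beside 13.7% of all 30000 pooled windows. TAATTA was in 14 (7.33%, against 5.14%) and TAATTG in 20 (10.5%, against 9.27%), and some windows held both. The core TAAT alone was in 70.7% against 66.6%. Mean GC content was 40.6% in both sets (SD 7.78 over homeobox windows and 8.35 over all). Among the strongest 5000 summits, 5 of 31 homeobox windows held TAATTA or TAATTG (16.1%, against 10.8%) and 25 held TAAT (80.6%, against 58.5%), at a mean GC content of 45.0% and 43.9%. Of those 5000 summits 5.16% lay near a small RNA gene, and of the 31 none did. A match is a description of the letters and not a binding site.

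Members of the TALE class, the Meis and Pbx relatives, differed widely. In unc-62 the 16.0 kb window held 11 pooled summits, 8 in replicate 1 and 15 in replicate 2. A second unc-62 summit at position -2000, the upstream edge of the window, reached rank 970 (signal 54.8), with matches at 6721 in replicate 1 and 1400 in replicate 2. The Pbx relative ceh-20 had its best summit in a coding exon at rank 5275, with no summit in replicate 1 and rank 4198 in replicate 2. Of the other Pbx relatives, ceh-60 was at rank 15880 and ceh-40 had no pooled summit. Among the 3 POU genes ceh-18 alone had summits, 5 pooled, 7 in replicate 1 and 5 in replicate 2.

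The 6 CUT genes found in the annotation, ceh-44 not being analysed here, all had a pooled summit, and 3 were among the strongest 5000, beside 67.0% and 21.5% of all genes. Counted by length, they held 4.06 pooled summits per 10 kb, beside 3.20 over all genes. The best belonged to ceh-39, one of the X-linked genes by which embryos count their X chromosomes to determine sex. Its summit lay in the 5′ UTR, 68 bp from the TSS (rank 688, signal 58.2). In replicate 2 it was at rank 306 (signal 51.7), and replicate 1 had no match there. Its neighbour ceh-21 and ceh-49 followed, the latter upstream at position -227 (rank 3355), with rank 4811 in replicate 1 and 11144 in replicate 2. The remaining 3, ceh-48, ceh-41 and ceh-38, were at pooled ranks 12091, 21667 and 22736. For ceh-41 each replicate had a stronger summit at a place of its own. It was at position -1559 in replicate 1 (rank 3287) and at 1466 bp in replicate 2 (rank 4861). The best replicate ranks were 14064 and 7175 for ceh-48 and 8072 and 22880 for ceh-38.

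**Figure D2:**
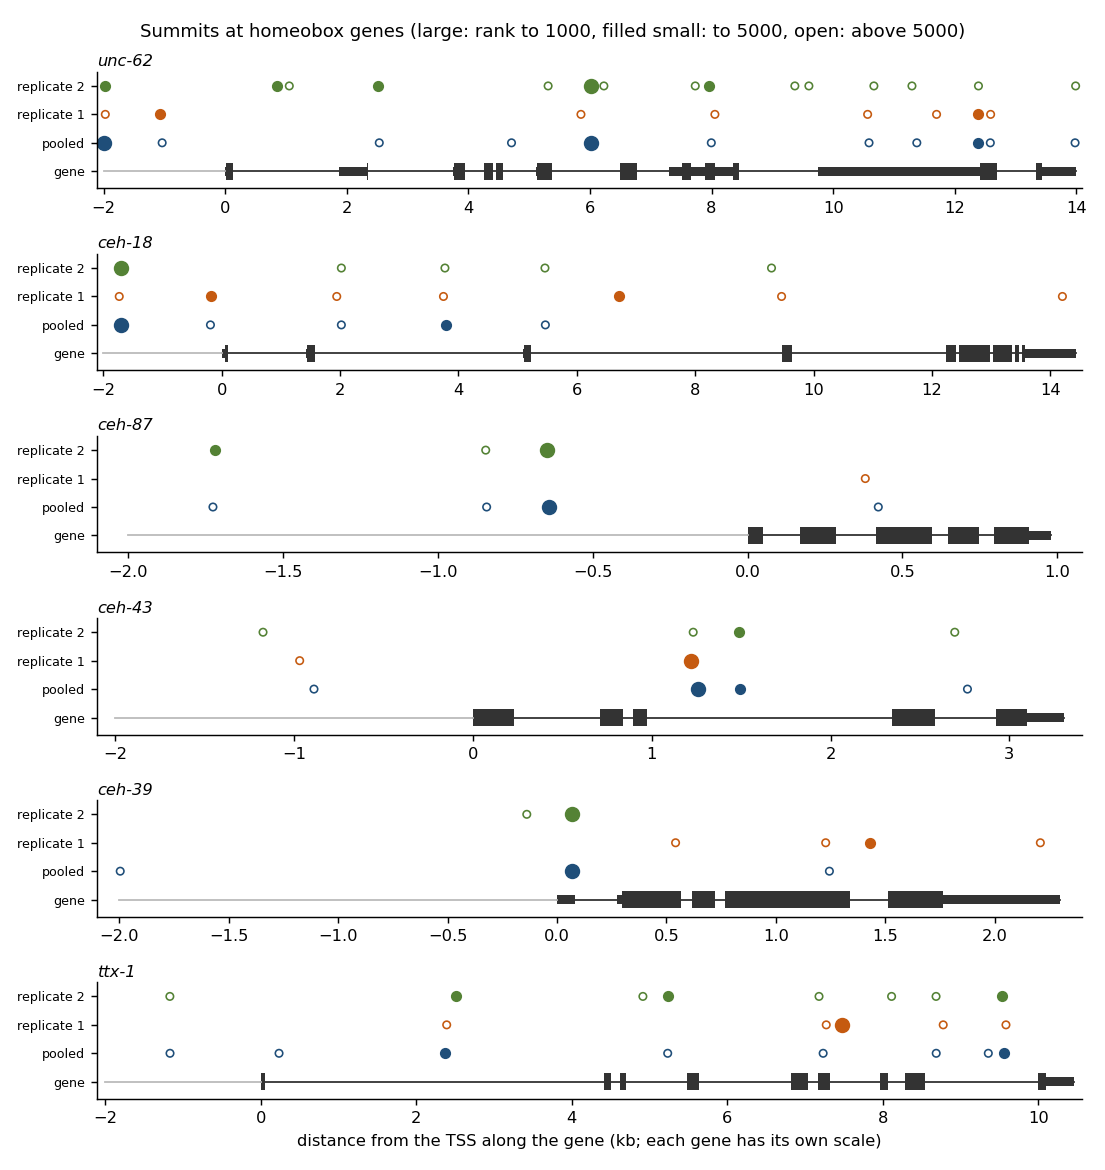
Summits along 6 homeobox genes, with distance from the TSS in kb on the horizontal axis and a row each for the pooled list (blue), replicate 1 (orange) and replicate 2 (green). Tall boxes are coding exons and low boxes UTRs, and symbol size and fill give the rank. The strongest summits of unc-62, ceh-18, ceh-87 and ceh-39 have a large green symbol above the blue one and no large orange one. At ttx-1 the large orange symbol stands alone.

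Paired and paired-like genes had 14 of 15 members with a pooled summit and 6 among the strongest 5000, beside 67.0% and 21.5% of all genes, and a median best rank of 6094. These shares take no account of window length. Per length the class held 3.57 pooled summits per 10 kb, beside 3.20 over all genes. After ceh-54 came alr-1, an aristaless relative, in a coding exon (rank 2034, signal 48.4), with matches at rank 8281 in replicate 1 and 3582 in replicate 2. The gene ttx-1, an Otx relative that sets the identity of thermosensory neurons, had 8 pooled summits in 12.5 kb. Its best was in an intron at 9556 bp (rank 2084), where replicate 1 had rank 19403 and replicate 2 had 4008. The strongest ttx-1 summit of replicate 1 was elsewhere, in an intron at 7471 bp (rank 195, signal 29.9), with no summit of replicate 2 there. The goosecoid relative ceh-45 (rank 3514) was matched in both replicates, at 4327 and 8874. The Pitx relative unc-30, which sets the identity of GABA motor neurons, was at rank 3761 in the 5′ UTR, with a match in replicate 2 alone, at 2995.

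Among the 23 ANTP genes outside the Hox set, 18 had a pooled summit and 6 were among the strongest 5000, against the same shares of all genes, with a median best rank of 8014.5. By length their windows held 3.27 pooled summits per 10 kb, beside 3.20 over all genes. After ceh-43 came vab-15, an Msx relative, in a coding exon at rank 2366, with matches at 19744 in replicate 1 and 2600 in replicate 2. The gene ceh-51, which acts in mesoderm specification, had a summit at position -374, inside the neighbouring gene emb-4 (rank 2605), with rank 1045 in replicate 1 and no match in replicate 2. The even-skipped relative vab-7, needed for the posterior body, was at rank 3322, with a match in replicate 1 alone, at 19154. The Bar relative ceh-31 was at rank 3830, with a match in replicate 2 alone, at 1065. Of these 4, vab-15 was thus matched within 100 bp in both replicates and the other 3 in a single one. Past that distance, replicate 2 had a ceh-51 summit at position -562 (rank 6595). It also had a vab-7 summit at 4405 bp (rank 7564), where the pooled one was at 4549 bp. The strongest vab-7 summit of replicate 1 was elsewhere, at 2856 bp (rank 1426). The only ceh-31 summit of replicate 1 was at position -175 (rank 27140). For cog-1, an Nkx6 relative that acts in taste neurons and the vulva, the best pooled summit (rank 3923) was matched at 11418 and 5515. Replicate 1 had a far stronger one at position -1417 (rank 188, signal 30.2), where the pooled list had rank 6133 and replicate 2 had none.

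Of the 7 LIM genes, which combine LIM domains with a homeodomain, 6 had a pooled summit and 1 was among the strongest 5000, beside 67.0% and 21.5% of all genes. They held 2.94 pooled summits per 10 kb of window, beside 3.20 over all genes. Their median best rank was 13944.5. The best was that of ceh-14 in the 3′ UTR at rank 3568, with rank 1644 in replicate 2, no match in replicate 1 and a run of 17 equal bases in its window. Of the sine oculis relatives, ceh-34 was at rank 9322, ceh-32 at 10779, and ceh-33 had none. Of the 22 homeobox genes outside the listed classes, 16 had a summit and 5 were among the strongest 5000. After ceh-87 these were ceh-100 in a coding exon at rank 2477, ceh-81 and its neighbour ceh-82, which share a summit at rank 3677, and ceh-90 at rank 4791. The matches in replicate 2 were at 1871 for ceh-100 and 7184 for the shared summit, and replicate 1 had none for either. For ceh-90 the matches were at 20311 in replicate 1 and 18403 in replicate 2.

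**Figure D3:**
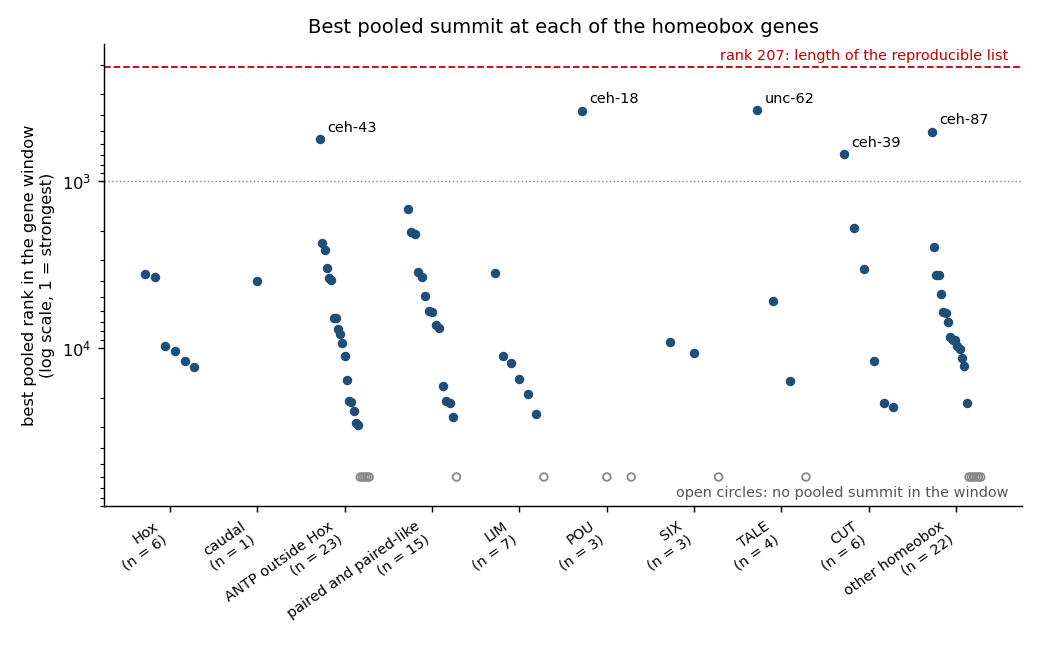
Best pooled rank in each homeobox gene window (log scale, 1 the strongest, at the top) by homeobox class, 1 point a gene, 73 filled points and 17 open circles for windows with no pooled summit. The red line marks rank 207, and no gene lies above it. The 5 named genes lie above the dotted line at rank 1000 and stand in 5 different columns.

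The median best rank over the 73 homeobox genes was 7735, and over all 13380 genes with a summit 9131. A longer window gives more summits to take the best from, and homeobox windows are longer (median 5.34 kb against 4.03 kb). The 2 medians are not corrected for this. The 25 best ranked homeobox genes ended with ceh-90 at rank 4791, and the next was ceh-36, an Otx relative, at rank 4874. By chromosome, the X chromosome had 10 of 27 homeobox genes among the strongest 5000 (37.0%), beside 18.9% of all X genes. Chromosome V had 4 of 15 (26.7%, against 15.2%), chromosome II 5 of 16 (31.2%, against 23.3%) and chromosome III 5 of 16 (31.2%, against 29.4%). Chromosome I had 1 of 10 (10.0%, against 29.0%) and chromosome IV 1 of 6 (16.7%, against 18.5%). These counts are small and were not tested.

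All 6 Hox genes had a pooled summit, beside 67.0% of all genes. Per length these 6 genes held 3.12 pooled summits per 10 kb, beside 3.20 over all genes. None was among the strongest 1000 of the pooled list, where 5.30% of all genes were, or of either replicate, and 6 genes are too few to set against that share. The midbody gene lin-39 had the best, in an intron 101 bp from the TSS (rank 3615, signal 43.5), with matches at rank 6242 in replicate 1 and 10094 in replicate 2. The posterior gene nob-1 followed at rank 3792 in a coding exon, with weak matches at 28906 and 10923. Its strongest replicate summits were elsewhere, at 4528 bp in replicate 1 (rank 8055) and position -822 in replicate 2 (rank 3706). Both lin-39 and nob-1 were among the strongest 5000 of the pooled list, and the other 4 Hox genes were not. The best ranks of mab-5 and egl-5, which pattern the posterior body, were 9824 and 10522. Those of php-3, a posterior gene, and ceh-13, the labial relative, were 12021 and 13072, and neither gene had any summit in replicate 1. In replicate 2 their best ranks were 10173 and 5143. The egl-5 summit lay 9 bp from the TSS in the 5′ UTR, with matches at 10236 in replicate 1 and 26135 in replicate 2. The caudal gene pal-1, which specifies posterior blastomeres, had its best summit at position -804, inside the gene C38D4.7 (rank 3999). Neither replicate had a match within 100 bp. Past that distance, replicate 2 had a summit at position -917 (rank 3280, signal 33.6) and replicate 1 at -676 (rank 14253, signal 12.7).

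**Figure D4:**
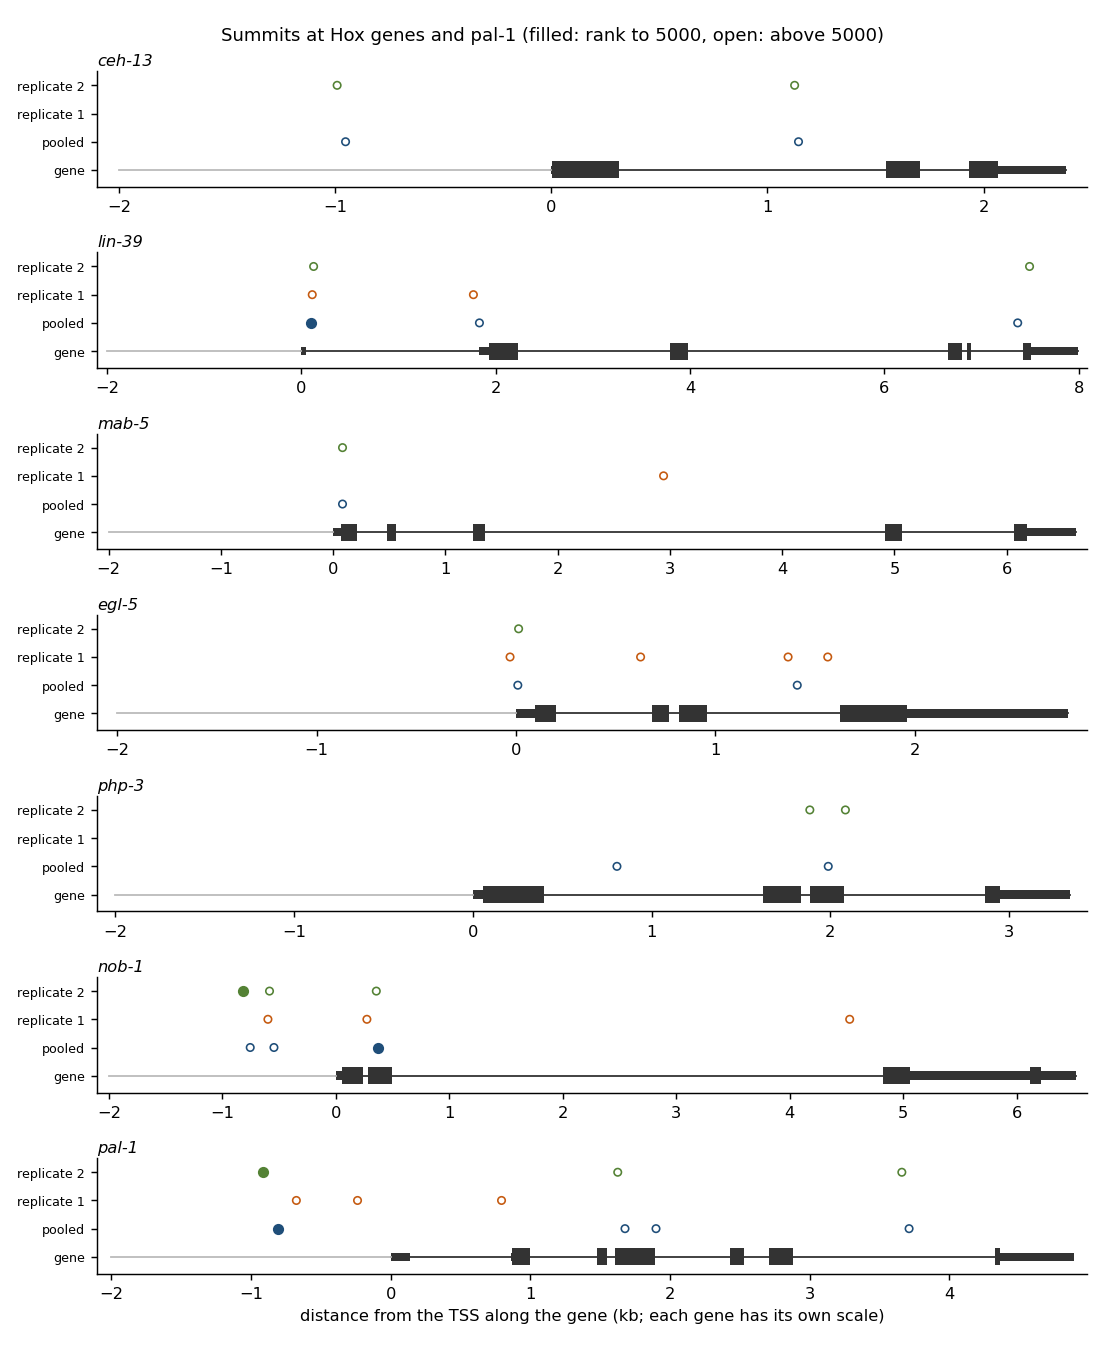
Summits along the 6 Hox genes and pal-1, with distance from the TSS in kb on the horizontal axis and rows as in the map of the strongest genes. Filled symbols are within the strongest 5000 of a list and open symbols are not. Most symbols are open, and only lin-39, nob-1 and pal-1 have a filled blue one. In replicate 1 every symbol is open, and ceh-13 and php-3 have none.

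The replicates were compared at each gene's best pooled summit, counting a replicate summit within 100 bp as a match. Of 73 homeobox genes, 18 had a match in both (24.7%, interval 15.3 to 36.1%), where 30.7% of all 13380 genes with a summit did, and 30.0% of those whose best summit was away from small RNA genes. A match in replicate 2 alone was found for 38 (52.1%, against 40.7%), in replicate 1 alone for 7 (9.59%, against 17.6%) and in neither for 10 (13.7%, against 11.0%). Replicate 2 thus matched 56 best summits (76.7%) and replicate 1 matched 25 (34.2%), where all genes had 71.4% and 48.3%. Replicate 2 also has the higher signal scale of the 2, and its part in this was not tested. No homeobox gene had a best summit matched within the strongest 5000 of both replicates, 0 of 73 (interval to 4.93%), where 4.80% of all genes did and 3.83% of those away from small RNA genes. The nearest to this were ceh-43, with ranks 887 and 5395, and ceh-22, an Nkx2 relative of the pharyngeal muscle, with 1737 and 7933.

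Among the 26 homeobox genes of the strongest 5000, 11 were matched in both (42.3%, interval 23.4 to 63.1%), 12 in replicate 2 alone, 2 in replicate 1 alone and 1 in neither, where 58.2% of all genes at that limit were matched in both. The pooled list is made from both replicates, so a match is not independent of it. The few genes at the very top were compared by replicate. The strongest 207 of replicate 1 held cog-1 (rank 188) and ttx-1 (rank 195), and those of replicate 2 held unc-62 (rank 93) and ceh-18 (rank 179). The strongest 1000 added ceh-43 (887), ceh-91 (893) and vab-3, the Pax6 relative (902), in replicate 1, and ceh-87 (250), ceh-39 (306) and ceh-54 (929) in replicate 2. No gene was in both groups of 5, where 304 of all genes (1.52%) were in the strongest 1000 of both replicates, which is 29.2% of those of replicate 1 and 29.1% of those of replicate 2. With 5 genes a list, 0 shared genes says little. Among the strongest 5000, 11 homeobox genes (12.2%, against 9.73% of all genes) had a summit in both lists, none of them within 100 bp of each other. How often such summits lay that close over all genes was not counted, so no trait of homeobox genes can be read from this. The 11 genes made up 45.8% of the 24 of replicate 1 and 40.7% of the 27 of replicate 2. Over all genes the shares were 44.7% and 45.6%. At that limit the overlap was near that of all genes. In replicate 2 cog-1 was at rank 5515 and ttx-1 at 2712, and in replicate 1 unc-62 was at 2407 and ceh-18 at 2702. Over the 58 homeobox genes with a summit in both lists, Spearman's rho between their best ranks was 0.05, and over 11032 genes it was 0.30, or 0.24 over the 10087 away from small RNA genes. These are descriptions across genes, which are not replicates and share the libraries.

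**Figure D5:**
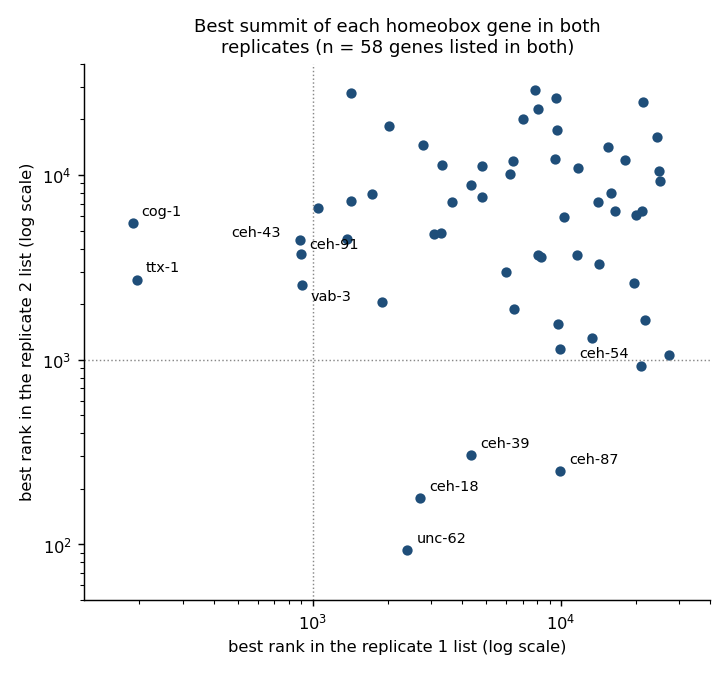
Best rank of each homeobox gene in replicate 1 (horizontal) and replicate 2 (vertical), log scales, low numbers strongest, for the 58 genes with a summit in both. Dotted lines mark rank 1000. The corner below both lines is empty, with cog-1 and ttx-1 at the left and unc-62 and ceh-18 at the bottom.

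By place, 63 of the 193 pairs of a homeobox gene and a summit lay upstream of the TSS (32.6%), and upstream sequence made up 32.4% of the windows' length. Introns held 74 (38.3%, against 44.3% of length), coding exons 42 (21.8%, against 15.9%), 5′ UTRs 8 (4.15%, against 2.34%) and 3′ UTRs 6 (3.11%, against 4.88%). Over all protein-coding genes coding exons held 27.7% of summits in 23.7% of the length and introns 31.8% in 33.1%. Upstream summits of the homeobox genes were therefore as frequent as their share of sequence. Of the 73 best summits 12 lay inside another protein-coding gene, among them those of ceh-87, ceh-51 and pal-1. The same share was not computed over all genes, so whether 12 is usual is not known.

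A pooled summit was missing from 17 homeobox windows (18.9%), beside 33.0% of all genes, and 11 (12.2%, against 16.2%) had none in any list. Homeobox windows are longer, with a median of 5.34 kb against 4.03 kb. In replicate 1 the shares with a summit were alike, at 70.0% of homeobox genes and 70.4% of all genes. The 17 were ceh-5, ceh-6, ceh-7, ceh-9, ceh-19, ceh-28, ceh-33, ceh-40, ceh-63, ceh-75, ceh-76, ceh-79, ceh-84, ceh-93, dsc-1, mec-3 and unc-86. The tagged gene ceh-9 was among the 11, and 2.85% of genes lay in a longer summit-free stretch of the pooled list. It was followed by unc-86, a POU gene that sets the identity of touch and other neurons, in a stretch of 33.4 kb (16.0 kb in replicate 1 and 36.0 kb in replicate 2). Next was mec-3, a LIM gene that acts with UNC-86 in touch neurons, in 31.8 kb (25.2 and 24.3 kb), and then ceh-40 in 27.6 kb (24.7 and 28.6 kb). The median gap around the 90 homeobox genes was 3.97 kb in the pooled list, against 5.91 kb for all genes. It was 7.21 kb against 5.47 kb in replicate 1 and 4.61 kb against 5.91 kb in replicate 2, so its direction differed between the replicates. Of these 4, mec-3 and ceh-40 had a summit in replicate 2, at ranks 17296 and 23634.

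The reproducible peaks nearest to homeobox genes lay outside their windows. The closest was 1.95 kb from the ttx-1 window (rank 181, signal 76.2), at 20051559 to 20051978 of chromosome V and away from small RNA genes. The next was 2.28 kb from the ceh-14 window (rank 164, signal 79.0), at 7536802 to 7537221 of the X chromosome, also away from them. Those nearest to ttx-3, ceh-8 and lim-7, at 6.58, 6.65 and 7.57 kb, were at a tRNA gene and at 2 snoRNA genes. Within 10 kb, 5 of 90 homeobox windows had a reproducible peak (5.56%), beside 5.15% of all genes. Within 50 kb it was 28 (31.1%, against 19.1%), and the median distance was 127 kb against 180 kb. These differences were not tested.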

How the data were processed

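ChIP-seq of GFP-tagged CEH-9 was measured in 2 biological replicates. Per the labels, the authors made a relaxed peak list from each replicate with a control, another from the replicates pooled, and the reproducible list from these 3 by the irreproducible discovery rate. For aligner, peak caller and versions, nothing was given in the sources used here. Each peak has a deposited signal value from the authors, used here only to rank peaks within a list, and a deposited −log10 value, read as that of a q-value from the column layout and used only as an alternative ranking. No read counts are given, so depth is unknown. The control libraries and the ce10 lists were not used here.

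Summits were placed on Ensembl release 115 genes, and the bases within 75 of each were read from the RefSeq genome WBcel235. A window ran from 2 kb upstream of the TSS to the gene end, and a summit in several windows counted for each gene. Replicate summits within 100 bp were matched. Homeobox classes came from a list made for this work, and 1 of its names had no match in the annotation. The members, lists and limits were chosen with earlier results of these data known, and the repeat features after the windows were seen. Genes were named by rule as the 25 best ranked members, the Hox genes and pal-1, ceh-9, and members with no pooled summit. Members outside this rule (ceh-8, ceh-20, ceh-22, ceh-32, ceh-34, ceh-36, ceh-38, ceh-41, ceh-48, ceh-60, ceh-91, lim-7, ttx-3 and vab-3) were named after their values were seen, as were zag-1, nsy-7 and duxl-1. Intervals are exact Clopper-Pearson at 95% and cover the counting of genes only. No test was run, since there is 1 group. Assignment and matching were checked on simulated data. Alternatives covered windows, each replicate alone, ranking, limits, matching distance and motif width. Python 3.11.15, numpy 2.4.6, pandas 2.3.3, scipy 1.17.1 and matplotlib 3.10.9 were used.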

Additional observations from a re-analysis of the deposited data

How the results depend on the processing

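Of 58 alternatives to 8 results, 45 moved a value by less than the SD between the replicate lists, or a count by less than 1.5 times, and 13 moved it further. These include each replicate's list alone. The SD comes from the same 2 lists, so for values it is not an independent limit there. The upstream share of summits (32.6%) followed the window, at 18.8% from 1 kb upstream and 48.2% from 5 kb. The median best rank (7735) became 7046 from 5 kb upstream and 9322 without summits inside another protein-coding gene, an alternative chosen after seeing the data. With each summit given to the nearest TSS, 2.71 summits per 10 kb and TAATTA or TAATTG in 19.2% of windows were found, against 3.47 and 15.7%. That motif share was 10.5% with 50 bp to each side and 21.5% with 100 bp. Among the strongest 500 there were 2 homeobox genes in place of 5. Best summits matched in both replicates numbered 28 within 200 bp and 0 within the strongest 5000 of each, in place of 18. With a single replicate's list, the genes with a summit ranged from 63 (replicate 1, 70.0% against 70.4% of all genes) to 73, those among the strongest 1000 stayed at 5 to 5 and those among the strongest 5000 at 24 to 27. The median rank then ranged from 7175 to 8072, summits per 10 kb from 2.84 to 3.45, the upstream share from 30.2 to 35.4% and the motif share from 16.1 to 17.9%. No paired analysis was possible because the series has only 1 group. Depth is unknown, no untagged strain or second condition was analysed here, and the fixed list length limits what presence in a list can show.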

Other observations

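Homeobox genes outside the naming rule were counted separately, 9 of them. Among the strongest 1000 pooled summits were 2 (22.2%, exact 95% interval 2.81 to 60.0%, beside 5.30% of all genes), pros-1, the Prospero relative, at rank 580, and zfh-2, which encodes a protein with zinc fingers and homeodomains, at rank 630. The replicate ranks of pros-1 were 9269 and 616, and those of zfh-2 were 671 and 1434. Of the 9, zag-1 followed at rank 1652 and nsy-7 at 2599, and duxl-1 had no pooled summit. The zfh-2 window of 33.4 kb held 22 pooled summits (6.59 per 10 kb).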
